A study of Mus musculus with 71 samples.

Results

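The adrenergic receptors were followed here through 7 genes, Adra1a, Adra1b, Adra1d, Adra2a, Adra2b, Adra2c and Adrb1. They were taken by name, not by their values, from a table of 55416 genes, and read in all 71 libraries of a bulk RNA sequencing study of the mouse brain after skin injury. The mice were C57BL/6J, and tissue from the hippocampus, the frontal cortex or the piriform cortex was sequenced as mixed brain tissue. Burn mice had a brass rod of 19 mm at over 90 °C pressed on the right flank for 10 s, which burned the full thickness of the skin on 7 to 8% of its total area. Excision mice lost full-thickness skin marked with a template of 12 mm on the back, and sham mice were shaved there without injury. Isoflurane anaesthesia, buprenorphine at 0.1 mg/kg and then paracetamol at 1 mg/mL in the water for 5 days are described for the mice without a distinction between groups. The burn thus differed from the other procedures in its site as well as its kind. The labels give neither age nor sex, neither the time from injury to tissue collection nor whether several regions came from the same mouse.

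The hippocampus had 10 burn, 10 excision and 9 sham libraries and the frontal cortex 10, 10 and 8, each in 2 batches, and the piriform cortex had 5, 4 and 5 in a batch of its own. For all 14 of these last libraries the labels conflict over the region: tissue and source say piriform cortex, the title says frontal cortex. Their library names carry the letter P, where those of the frontal cortex libraries carry FC. These libraries are called piriform cortex here by the tissue label, and no marker list for the piriform cortex was read that could settle which label holds. Total counts ran from 6.65 to 87.8 M per library, and the 4 libraries under 10 M were all of hippocampus batch 1. Treatments follow the treatment characteristic of each library. For 4 libraries the title names another treatment, namely frontal cortex burn replicates 7 and 8, frontal cortex excision replicate 7 and piriform cortex sham replicate 2. The numbers in the library names run in blocks by treatment. By the characteristic, these frontal cortex libraries have the treatment of the hippocampal libraries with the same number in batch 2. The number of the piriform library lies between the excision and the sham block. Nothing in the labels says which libraries came from separate animals, so the p-values measure the spread between libraries. A set of 7 hippocampal marker genes summed to 441 to 684 CPM (counts per 1 M counts of the library, after TMM scaling) in the hippocampus and 252 to 423 CPM in the frontal cortex. A set of 7 neocortical markers summed to 312 to 868 CPM in the frontal cortex, 545 to 1008 CPM in the piriform cortex and 212 to 485 CPM in the hippocampus. A set of 7 striatal markers ranged from 115 to 1495 CPM in the frontal cortex and from 188 to 1725 CPM in the piriform cortex, but only from 108 to 182 CPM in the hippocampus. Piriform cortex sham replicate 1 stood apart: its hippocampal markers summed to 598 CPM, within the range of the hippocampus, and its neocortical sum of 545 CPM was the lowest of the piriform cortex. None of these markers was at 0 throughout a group.

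Adrenergic receptors bind noradrenaline and adrenaline. In the brain the noradrenaline comes mainly from axons of the locus coeruleus, which reach the whole cortex and the hippocampus and are active in arousal and stress. The alpha-1 receptors couple to Gq and phospholipase C, the alpha-2 receptors to Gi/o, which lowers cyclic AMP and, as presynaptic autoreceptors, noradrenaline release, and the beta-1 receptor to Gs, which raises cyclic AMP. The transcripts measured here are those made by cells within the tissue piece, so receptors carried on incoming axons were not counted.

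All 7 genes are protein-coding, and their positions are those of GENCODE M21 on GRCm38. The alpha-1 genes are Adra1a (chr14:66635251-66771168, plus strand), Adra1b (chr11:43774606-43901210, minus strand) and Adra1d (chr2:131545850-131562283, minus strand). The alpha-2 genes are Adra2a (chr19:54044151-54048982), Adra2b (chr2:127363208-127367221) and Adra2c (chr5:35278319-35281763), all on the plus strand. The beta-1 gene Adrb1 lies at chr19:56722199-56733113 on the plus strand. Adra1d overlaps the annotated gene Gm14285 on the opposite strand. The strand setting of the counting is not given in the sources used here, so reads of the 2 genes cannot be told apart.

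Promoter windows of GRCm38.p6 were found in RefSeq for 5 of the 7 genes, and not for Adra1a and Adra1d. The windows of Adrb1 and of the outer start of Adra1b are shown because these 2 genes rose and fell together with neocortical markers in the frontal cortex, as described further on. Each is the 250 bases before the annotated start, 5′ to 3′ on the gene's strand, with capitals marking matches to the GC box GGGCGG, the core TGACG of the cAMP response element or the arm TGTTCT of the glucocorticoid response element, searched on both strands.
Adrb1, chr19:56721867-56722116 (+): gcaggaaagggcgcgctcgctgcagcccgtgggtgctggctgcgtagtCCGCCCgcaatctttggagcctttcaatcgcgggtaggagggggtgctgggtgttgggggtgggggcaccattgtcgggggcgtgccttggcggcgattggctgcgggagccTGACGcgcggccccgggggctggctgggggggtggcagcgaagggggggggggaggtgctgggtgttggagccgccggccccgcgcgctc
Adra1b, chr11:43901238-43901487 (-): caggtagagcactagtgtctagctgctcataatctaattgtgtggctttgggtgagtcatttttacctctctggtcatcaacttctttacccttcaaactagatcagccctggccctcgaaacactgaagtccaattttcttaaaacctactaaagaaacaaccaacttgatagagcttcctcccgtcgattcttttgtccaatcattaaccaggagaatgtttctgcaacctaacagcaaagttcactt
The Adrb1 window was 74.0% G and C, against a median of 52.4% over 32851 promoters, and the Adra1b window 41.6%. Adrb1 held 1 GC box and 1 TGACG, which 32.7% and 17.8% of all promoter windows hold, and no TGTTCT, which 16.1% hold. The outer Adra1b window held none of these letters, while its inner start, within the gene at chr11:43836490-43836739, was 72.8% G and C and held 1 GC box. The Adra2a window, not shown, also held 1 GC box and 1 TGACG, and Adra2a ran against the neocortical markers in the frontal cortex. A match is a description of the letters only.

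To compare the receptors with each other, CPM was divided by the exon length of each gene. Adra1d was the highest of the 7 in the hippocampus, with a median of 24.9 CPM per kb (range 13.9 to 36.3, n = 29), and stood first in 29 of 29 libraries. There Adra2c followed with 10.6 CPM per kb, second in 29 of 29 libraries, then Adrb1 with 5.32, Adra2a with 3.81 and Adra1b with 1.79. The hippocampal ranges of Adrb1 (4.37 to 7.21 CPM per kb) and Adra2a (2.46 to 5.67) overlapped, as did those of Adra2a and Adra1b (0.819 to 4.72). Adra1a and Adra2b were sixth and seventh in every library of all 3 regions. Their hippocampal medians were 0.368 and 0.0281 CPM per kb. The exon length of Adra1a includes alternative last exons, which lowers its value per kb.

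The order was less separated in the cortex. In the frontal cortex the medians were 14.7 CPM per kb for Adra1d, 9.32 for Adra2c, 9.10 for Adrb1, 8.37 for Adra1b and 5.19 for Adra2a (n = 28). The ranges overlapped except for those of Adra1d (7.72 to 25.5 CPM per kb) and Adra2a (2.63 to 7.08), and Adra1d was first in 23 libraries and Adra2c in the other 5. In the piriform cortex they were 15.3 for Adra1d, 11.4 for Adra2c, 10.3 for Adrb1, 6.40 for Adra1b and 4.47 for Adra2a (n = 14). As a share of the summed CPM per kb of the 7 genes, Adra1d had a median of 53.5% in the hippocampus and 30.2% in the frontal cortex, and Adra1b 4.02% and 16.9%.

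**Figure D1:**
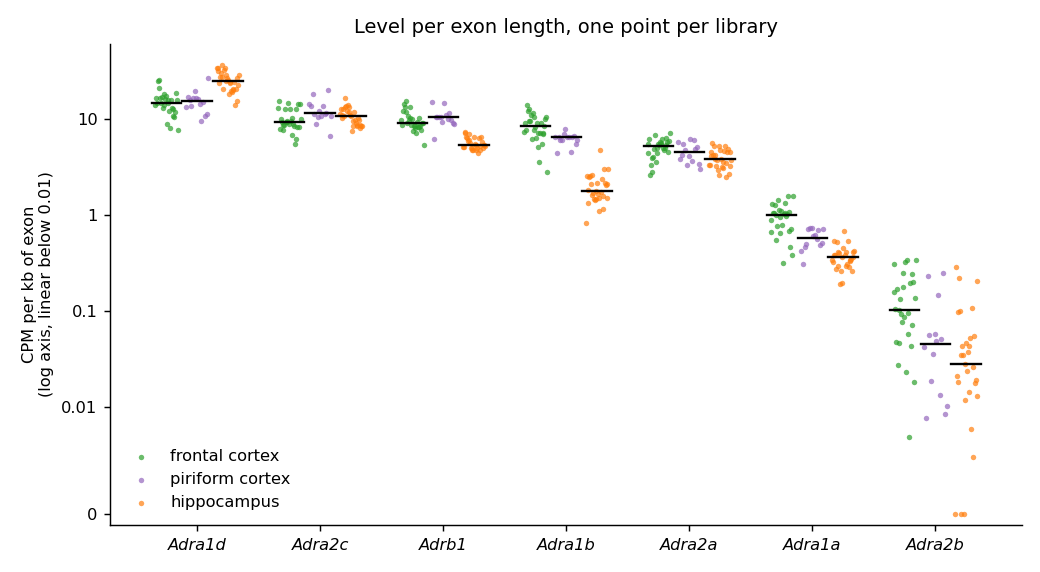
Level of each receptor gene as CPM per kb of exon, on a log axis that is linear below 0.01, in the 28 frontal cortex, 14 piriform cortex and 29 hippocampus libraries (points, with horizontal bars at the median). Adra1d is highest in the hippocampus at 24.9 CPM per kb, Adra1b is lower in the hippocampus than in both cortices, and Adra2b lies at the bottom, with 3 hippocampal libraries at 0.

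Sham libraries showed how the genes differ by region without injury. Between hippocampus and frontal cortex, 5 of 6 tested genes were called at an adjusted p under 0.05 (edgeR quasi-likelihood test, batch as a term, Benjamini-Hochberg over 19336 genes), where 41.0% of all tested genes were called. Adra1a, Adra1b, Adra2a and Adrb1 were lower in the hippocampus and Adra1d was higher. In bulk tissue, fewer cells of a type and less RNA per cell cannot be told apart. The median log2 difference of the 6 genes was -0.66, against -0.00158 over all tested genes.

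Adra1b, the Gq-coupled alpha-1B receptor, had the widest difference of the 6. It measured 3.75, 5.88 and 16.0 CPM (lowest, median, highest, n = 9) in sham hippocampus and 12.1, 25.1 and 35.3 CPM (n = 8) in sham frontal cortex. The groups overlapped through 1 hippocampal library at 16.0 CPM, the others being at or below 8.69 CPM. The log2 difference, hippocampus minus frontal cortex, was -1.74 (SE 0.272, adjusted p = 3.14e-05), with -2.23 in batch 1 alone and -1.24 in batch 2 alone.

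Adra1a, the alpha-1A receptor, measured 1.72, 2.85 and 4.69 CPM in sham hippocampus and 5.71, 8.49 and 11.6 CPM in sham frontal cortex. The groups did not overlap, and the log2 difference was -1.56 (SE 0.148, adjusted p = 4.53e-08). Adra1d, the alpha-1D receptor, went the other way, with 35.8, 45.5 and 59.5 CPM in the hippocampus and 15.3, 28.2 and 32.5 CPM in the frontal cortex. These groups did not overlap either, and the log2 difference was 0.90 (SE 0.131, adjusted p = 1.36e-05). The 3 alpha-1 genes thus did not share a direction between the regions.

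Adra2a, the alpha-2A receptor and the main presynaptic autoreceptor of noradrenaline neurons, measured 12.6, 15.9 and 25.0 CPM in sham hippocampus and 21.5, 26.2 and 29.7 CPM in sham frontal cortex. The groups overlapped, and the log2 difference was -0.53 (SE 0.13, adjusted p = 0.00283). Among burn libraries it was -0.07 (adjusted p = 0.729), and among excision libraries -0.54 (adjusted p = 0.000778). Adra2c, the alpha-2C receptor, gave similar ranges in both regions, 28.7 to 45.2 CPM and 23.3 to 52.6 CPM. Its log2 difference was 0.13 (interval of 2 SE each way, -0.10 to 0.37), which was not called (adjusted p = 0.389). Adrb1, the beta-1 receptor, measured 14.8, 16.7 and 21.6 CPM in sham hippocampus and 24.3, 29.1 and 34.1 CPM in sham frontal cortex, without overlap. The log2 difference was -0.78 (SE 0.0866, adjusted p = 3.95e-07) and was -0.81 and -0.72 among burn and excision libraries.

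**Figure D2:**
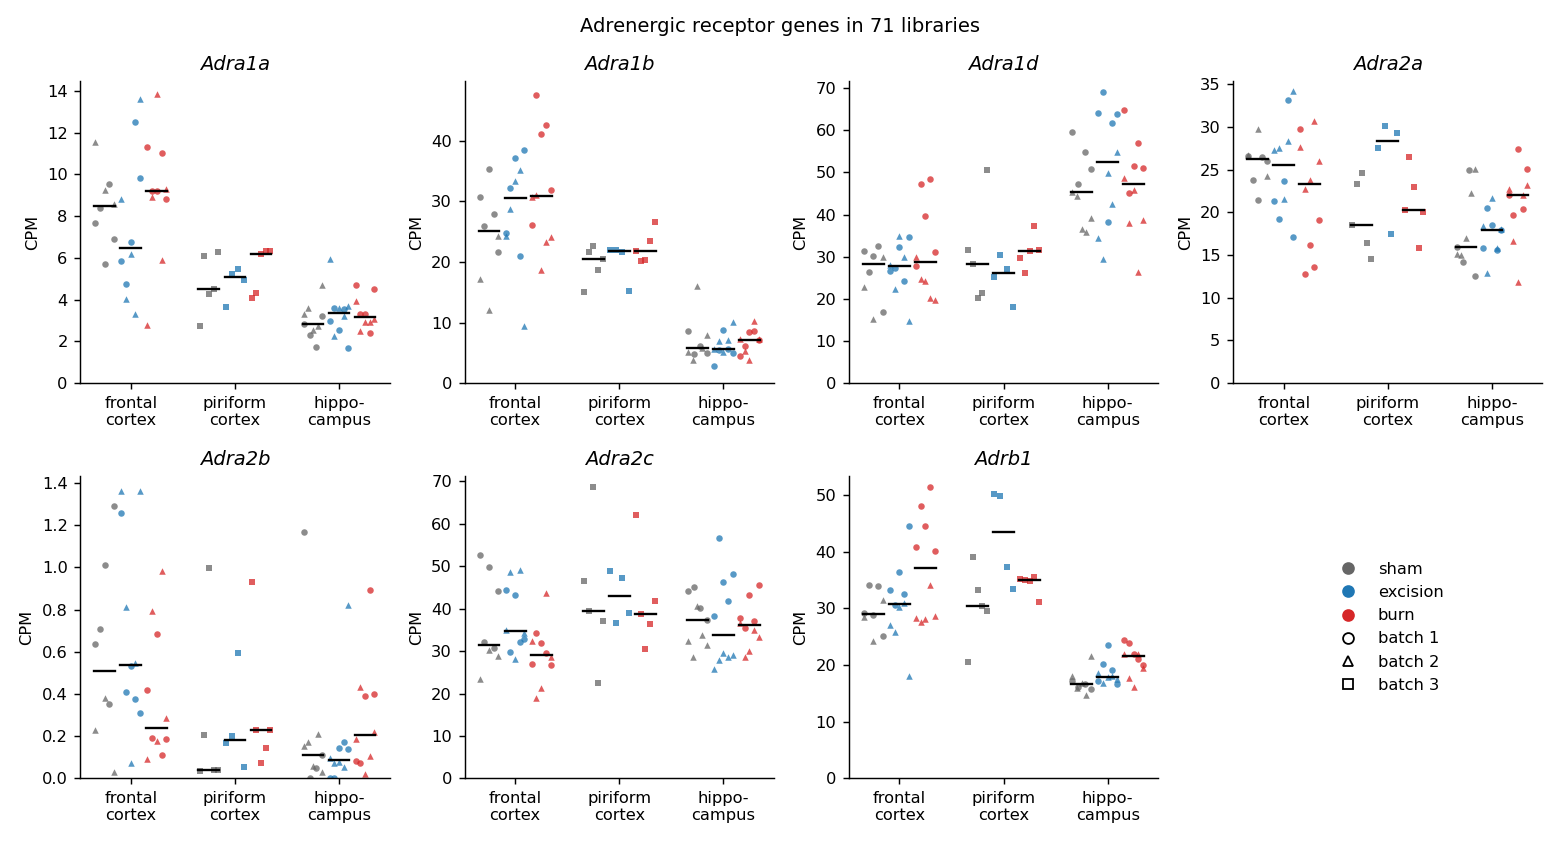
CPM of each receptor gene in every library, by region and treatment (grey sham, blue excision, red burn; circles, triangles and squares for batches 1, 2 and 3; bars at the group median), each panel on its own linear axis from 0. The medians of Adra1b and Adrb1 are lower and that of Adra1d is higher in the hippocampus than in the frontal cortex for each treatment, and the Adra2c ranges of all regions overlap.

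The libraries labelled piriform cortex were a batch of their own, so their differences from the other regions and those of the batch cannot be told apart. Their titles name the frontal cortex, unlike their tissue, source and library names. If the titles hold, a difference from the frontal cortex is not one between regions. Against sham frontal cortex, 1 of 7 tested genes was called, where 11% of all tested genes were. This was Adra1a, at 2.72, 4.26, 4.52, 6.08 and 6.31 CPM in the 5 sham piriform libraries, and lower by a log2 difference of -0.81 (SE 0.209, adjusted p = 0.0127). Its highest values overlapped the lowest of the frontal cortex, and without replicate 1, the library high in hippocampal markers, the difference was -0.66 (adjusted p = 0.04). Among excision libraries the difference was -0.64 (adjusted p = 0.274). Adrb1 measured 20.6, 29.6, 30.4, 33.2 and 39.1 CPM and differed by 0.06 (2 SE interval -0.17 to 0.30, adjusted p = 0.793). Replicate 1 held the lowest of these values, and without it the difference was 0.18 (adjusted p = 0.312).

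Sham hippocampus against sham piriform cortex gave 4 of 7 called, where 33.6% of all tested genes were. Adra1b (-1.50, SE 0.258, adjusted p = 5.39e-05), Adrb1 (-0.85, SE 0.115, adjusted p = 2.14e-06) and Adra1a (-0.66, SE 0.202, adjusted p = 0.0127) were lower in the hippocampus on the log2 scale, and Adra1d was higher (0.60, SE 0.204, adjusted p = 0.0262). The Adra1d difference kept its sign when each library was left out in turn, from 0.45 to 0.84, but its call did not hold throughout. Of these 22 fits, 8 had an adjusted p over 0.05. Without piriform sham replicate 2, whose title names excision, only Adra1b and Adrb1 remained called, with Adra1a at an adjusted p of 0.055 and Adra1d at 0.0627. Adra1a was also lost without replicate 5 (0.0533). Without replicate 1 all 4 stayed called, Adrb1 at -0.99 and Adra1a at -0.84.

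No receptor gene was called in any of the 9 treatment contrasts. In the hippocampus 6 genes were tested, since Adra2b did not pass the count filter, and 0 of 6 were called for burn against sham, where 1.03% of 19574 tested genes were called. The shares of all genes called were 0.0% for excision against sham and 0.209% for burn against excision. In the frontal cortex 0 of 7 were called in each contrast, against 0.28%, 0.0% and 0.209% of 21077 tested genes in the same order. In the piriform cortex 0 of 7 were called, against 0.0% of 21004 genes in each contrast. At an unadjusted p under 0.05, burn against sham had 1 receptor gene in the hippocampus and 2 in the frontal cortex, and the same threshold took 17.7% and 13% of all tested genes there. Contrasts within a region share groups and are not independent.

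Adrb1 was the gene nearest to a call. In the hippocampus it measured 16.1, 21.5 and 24.4 CPM after burn (lowest, median, highest, n = 10), 16.6, 18.0 and 23.6 CPM after excision (n = 10) and 14.8, 16.7 and 21.6 CPM in shams (n = 9). The groups overlapped, with a log2 fold change of 0.27 for burn against sham (SE 0.0733, unadjusted p = 0.00101, adjusted p = 0.0662). The adjusted p was 0.0281 with the DESeq2 Wald test, and from 0.0148 to 0.143 when each library was left out in turn. It fell below 0.05 without sham replicate 9 (0.0148), burn replicate 8 (0.0177) or excision replicate 3 (0.0469).

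In the frontal cortex Adrb1 measured 27.7, 37.2 and 51.5 CPM after burn (n = 10), 18.1, 30.8 and 44.6 CPM after excision (n = 10) and 24.3, 29.1 and 34.1 CPM in shams (n = 8). The log2 fold change for burn against sham was 0.34 (SE 0.104, unadjusted p = 0.00271, adjusted p = 0.138), and for burn against excision 0.26 (adjusted p = 0.3). The piriform values were 31.2, 34.9, 34.9, 35.1 and 35.6 CPM after burn and 33.4, 37.2, 49.9 and 50.2 CPM after excision. Both groups overlapped the 5 shams given above. Excision against sham had the larger log2 fold change, 0.47 (SE 0.148, unadjusted p = 0.00603, adjusted p = 0.915), and burn against sham 0.16 (adjusted p = 0.887). Without sham replicate 1 they were 0.36 (adjusted p = 0.855) and 0.06 (adjusted p = 0.997).

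**Figure D3:**
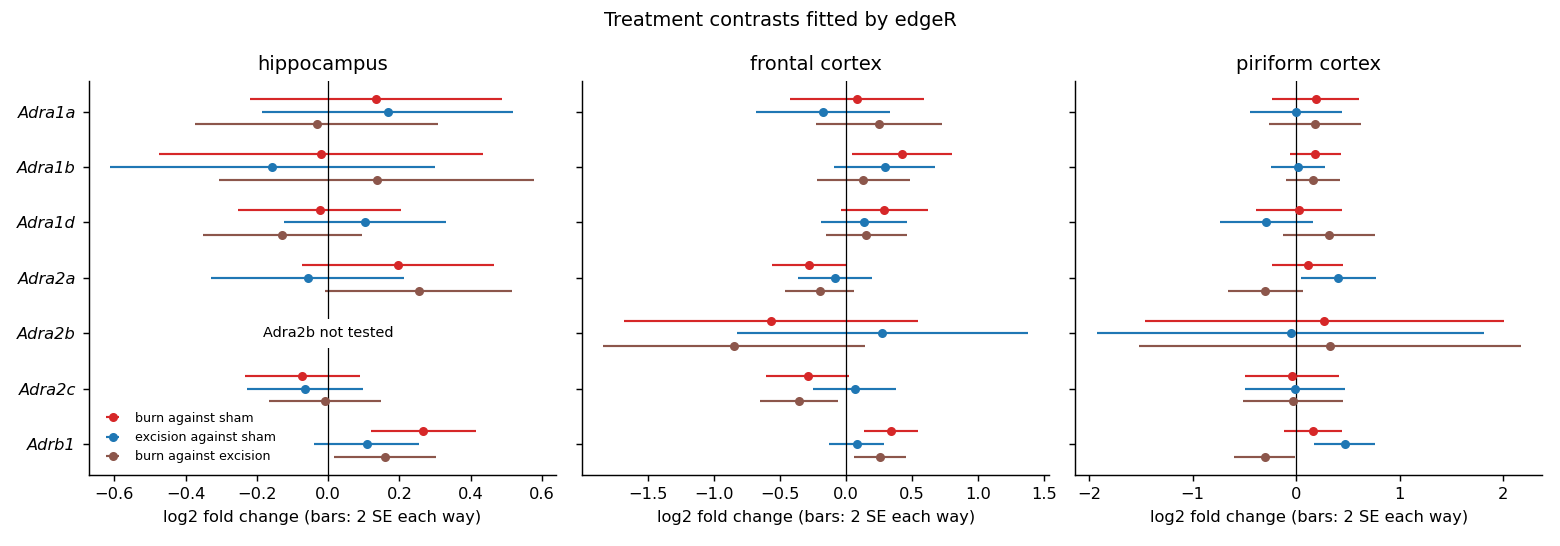
Log2 fold changes of the receptor genes for the 3 treatment contrasts in each region (points, with bars of 2 SE each way; the panels differ in scale, and Adra2b was not tested in the hippocampus). None was called after adjustment, and Adrb1 has the smallest adjusted p for burn against sham in the hippocampus (0.0662) and the frontal cortex (0.138).

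Fitted in each batch alone, Adrb1 was called for burn against sham in batch 1 of both regions and not in batch 2. Whether the regions came from the same mice is not given, so the results of both regions may not be independent. In frontal cortex batch 1 the burn libraries measured 40.2, 40.8, 44.6, 48.1 and 51.5 CPM and the shams 25.1, 28.9, 29.3, 34.0 and 34.1 CPM. The groups did not overlap, as for 8.35% of all tested genes that were higher after burn in that batch, and the log2 fold change in batch 1 alone was 0.56 (SE 0.114, adjusted p = 0.0191). In batch 2 the burn libraries measured 27.7, 28.1, 28.4, 28.7 and 34.2 CPM and the 3 shams 24.3, 28.4 and 31.4 CPM, with overlap and a log2 fold change of 0.07 (adjusted p = 0.929). The burn values of 27.7 and 28.1 CPM are those of replicates 7 and 8, whose titles name sham. The batch 2 contrast and the comparison of batches thus rest on the treatment characteristic. The difference of the burn effect between batches, batch 2 minus batch 1, was -0.51 (SE 0.193, unadjusted p = 0.0134) and was not called (adjusted p = 0.183), as 0.0% of all tested genes were.

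In hippocampus batch 1, Adrb1 measured 20.0, 21.1, 22.0, 23.9 and 24.4 CPM after burn and 15.9, 16.1, 16.7 and 17.2 CPM in shams. Again the groups did not overlap, as for 5.14% of all tested genes that were higher after burn there, and the log2 fold change was 0.39 (SE 0.0999, adjusted p = 0.0279). In batch 2 it measured 16.1, 17.7, 19.6, 21.9 and 22.0 CPM after burn and 14.8, 15.9, 16.8, 18.0 and 21.6 CPM in shams, with a log2 fold change of 0.14 (adjusted p = 0.858). The difference between batches was -0.25 (SE 0.144, adjusted p = 0.397), with 0 of 6 receptor genes called and 0.046% of all tested genes. The burn effect on Adrb1 in the frontal cortex minus that in the hippocampus was 0.10 (2 SE interval -0.16 to 0.36, adjusted p = 0.868). That test took the libraries of both regions as independent.

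**Figure D4:**
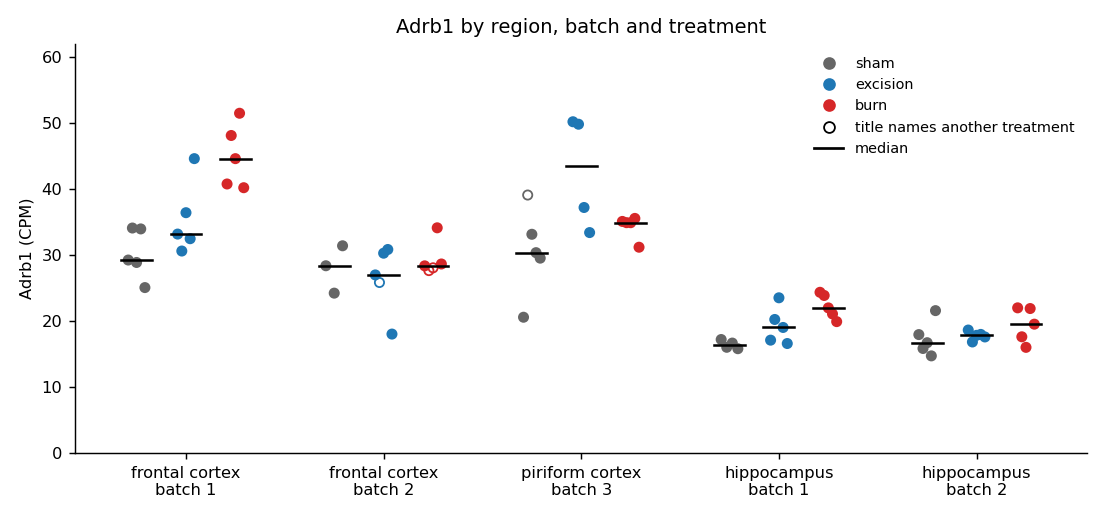
Adrb1 in CPM for every library, by region, batch and treatment (filled points; open points for libraries whose title names another treatment; bars at the median), on a linear axis from 0. Burn and sham libraries do not overlap in batch 1 of the frontal cortex (40.2 to 51.5 against 25.1 to 34.1 CPM) and of the hippocampus (20.0 to 24.4 against 15.9 to 17.2 CPM), and they overlap in batch 2 of both.

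Marker lists were read in the same groups. Of the 14 marker lists, neurons in frontal cortex batch 1 (7320 to 8459 CPM after burn, 5573 to 6829 CPM in shams) and astrocytes in hippocampus batch 1 (1347 to 1514 CPM after burn, 1103 to 1334 CPM in shams) had sums that did not overlap between burn and sham. This was a single list of the 14 in each region, where 8.35% and 5.14% of all tested genes were likewise higher after burn without overlap. In batch 2 the neuron and astrocyte lists overlapped in the same regions, and their part in the Adrb1 difference was not tested. Neocortical markers had a higher median after burn in frontal cortex batch 1, with overlap, but not in batch 2. In batch 1 the 7 markers summed to 584 to 868 CPM after burn (median 728) and 507 to 620 CPM in shams (median 573). In batch 2 they summed to 456 to 594 CPM after burn (median 465) and 388 to 573 CPM in shams (median 563). Their mean log2 levels in batch 2 were 5.713 after burn and 5.684 in shams. With the mean log2 level of these markers as a covariate, an alternative chosen after the data were seen, the frontal cortex log2 fold change of Adrb1 for burn against sham was 0.16 (SE 0.0729, adjusted p = 0.732). In the hippocampus it was 0.23 (SE 0.0656, adjusted p = 0.0751), where it had been 0.27 without the covariate. Adrb1, Adra1b and Adra1d followed this list in these same frontal cortex libraries, as given further on. The covariate fit therefore cannot tell a burn effect on these genes from a difference between tissue pieces. No other list was used as a covariate.

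The alpha-1 genes gave smaller or less certain differences. Adra1b in the frontal cortex measured 18.6, 30.8 and 47.6 CPM after burn and 12.1, 25.1 and 35.3 CPM in shams. The groups overlapped, with a log2 fold change of 0.43 (SE 0.19, unadjusted p = 0.0322, adjusted p = 0.334), which was 0.04 with the neocortical covariate. Adra1d there was 0.29 (SE 0.163, adjusted p = 0.459), and -0.002 with the covariate. In the hippocampus the burn against sham values were -0.02 for both Adra1b and Adra1d and 0.13 for Adra1a, with adjusted p from 0.744 to 0.982.

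Among the alpha-2 genes, Adra2c in the frontal cortex measured 19.0, 29.1 and 43.7 CPM after burn, 28.2, 34.6 and 49.1 CPM after excision and 23.3, 31.4 and 52.6 CPM in shams. The groups overlapped, and burn against excision gave -0.36 (SE 0.147, unadjusted p = 0.0222, adjusted p = 0.353). Adra2a had opposite signs for burn against sham in the frontal cortex (-0.28, adjusted p = 0.396) and the hippocampus (0.20, adjusted p = 0.465). The difference between them was -0.46 (SE 0.198, unadjusted p = 0.025) and was not called (adjusted p = 0.5). In the piriform cortex Adra2a measured 17.5, 27.5, 29.2 and 30.1 CPM after excision and 14.5, 16.4, 18.6, 23.3 and 24.5 CPM in shams, with overlap and a log2 fold change of 0.41 (unadjusted p = 0.0391, adjusted p = 0.915).

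Adra2b, the alpha-2B receptor, was counted too rarely for a treatment comparison of use. Its raw counts had medians of 4 in the hippocampus, 28 in the frontal cortex and 11 in the piriform cortex, and it stood at 0 counts in 3 hippocampal libraries, where 3 counts, the limit that a count of 0 allows, would be at most 0.148 CPM. Its log2 fold change for burn against sham in the frontal cortex was -0.57, with a 2 SE interval of -1.68 to 0.55. Its libraries nevertheless fell into high and low ones, as the next comparison shows.

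Receptor levels were also compared with marker lists for 14 brain areas or cell types over the libraries of each region, after subtracting the mean of each treatment and batch. This gave 294 relations, of which 21 had an adjusted permutation p under 0.05 for Pearson's r (100000 two-sided permutations within treatment and batch). In the frontal cortex (n = 28), Adra1b went with the neocortical list at Pearson r = 0.887 (permutation p = 2e-05, adjusted 0.00196) and Spearman rho = 0.786 (permutation p = 4e-05, adjusted 0.00588). The r was 0.778 without the 2 libraries farthest out on the marker score, 0.824 within batch 1 and 0.912 within batch 2. Both genes with a promoter shown above were of this kind: Adrb1 had r = 0.813 (permutation p = 0.00015, adjusted 0.00735) and rho = 0.782 (permutation p = 0.00011, adjusted 0.00647), 0.689 without the 2 farthest and 0.819 and 0.831 within batches. In the hippocampus Adrb1 and that list gave r = 0.555 (permutation p = 0.0033, adjusted 0.0484) and rho = 0.498 (permutation p = 0.0111, adjusted 0.121). Its r there was 0.403 without the 2 farthest and 0.639 and 0.492 within batches. Adra1b gave r = 0.489 in the hippocampus (permutation p = 0.0143, adjusted 0.105).

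Adra1d also rose with the neocortical list in the frontal cortex, at r = 0.792 (permutation p = 4e-05, adjusted 0.00294) and rho = 0.724 (permutation p = 7e-05, adjusted 0.00647), with 0.697 without the 2 farthest and 0.802 and 0.807 within batches. In the hippocampus (n = 29) the same relation had the opposite sign, at r = -0.668 (permutation p = 0.00173, adjusted 0.0339) and rho = -0.529 (permutation p = 0.00905, adjusted 0.106), with -0.484 without the 2 farthest and -0.596 and -0.727 within batches. In the frontal cortex Adra2a ran against the list, at r = -0.672 (permutation p = 1e-05, the smallest these permutations give, adjusted 0.00147) and rho = -0.709 (permutation p = 0.0001, adjusted 0.00647). Its r was -0.736 without the 2 farthest and -0.822 and -0.76 within batches. The library lowest in neocortical markers, excision replicate 10 with a sum of 312 CPM, was also the lowest for Adra1b (9.38 CPM) and Adrb1 (18.1 CPM) in that region.

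Adra2b went with striatal markers in the frontal cortex, at r = 0.825 (permutation p = 1e-05, adjusted 0.00147) and rho = 0.859 (permutation p = 1e-05, adjusted 0.00294), with 0.768 without the 2 farthest and 0.738 and 0.871 within batches. Adra2c went there with oligodendrocyte markers, at r = 0.681 (permutation p = 0.00013, adjusted 0.00735) and rho = 0.727 (permutation p = 0.00019, adjusted 0.00931), with 0.769 without the 2 farthest and 0.572 and 0.872 within batches. In the hippocampus Adra2c and oligodendrocyte markers gave r = 0.099 (permutation p = 0.573, adjusted 0.766), with 0.235 and -0.052 within batches. Adra1a in the frontal cortex went with astrocyte markers at r = 0.71 (permutation p = 0.00069, adjusted 0.0245) and rho = 0.619 (permutation p = 0.00387, adjusted 0.0711), with 0.611 without the 2 farthest and 0.849 and 0.677 within batches. In the other regions Adra1a and astrocyte markers gave r = 0.271 in the hippocampus (permutation p = 0.206, adjusted 0.471) and r = -0.669 in the piriform cortex (permutation p = 0.023, adjusted 0.147, n = 14), so the relation did not have 1 direction. Adra1a also went with neuron markers in the frontal cortex, at r = 0.632 (permutation p = 0.00118, adjusted 0.0289) and rho = 0.461 (permutation p = 0.0293, adjusted 0.221). Its r with neuron markers was 0.676 without the 2 farthest and 0.578 and 0.757 within batches. In the hippocampus that r was 0.566 (permutation p = 0.00499, adjusted 0.0589).

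In the hippocampus Adra1d rose with the hippocampal list, at r = 0.699 (permutation p = 0.00055, adjusted 0.0231, n = 29) and rho = 0.665 (permutation p = 0.00024, adjusted 0.0101), with 0.51 without the 2 farthest and 0.801 and 0.63 within batches. For Adra2b, 3 hippocampal libraries stood apart on the thalamic list, burn replicate 4 with a summed 250 CPM, excision replicate 10 with 243 CPM and sham replicate 1 with 204 CPM. They were the highest of their groups for Adra2b too, at 0.895, 0.821 and 1.17 CPM, so no pooled r is given. Choroid plexus markers summed to 5080 CPM in that sham library, 2402 CPM in that excision library and 101 CPM in that burn library, within a hippocampal range of 21.9 to 6643 CPM. Over the other 26 libraries r was 0.518 (permutation p = 0.132) and rho 0.578 (permutation p = 0.114), and r was 0.642 without the 2 farthest. Tissue from neighbouring areas, the cell makeup of each piece and the level per cell cannot be told apart in these relations, and their part in the regional differences was not tested.

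**Figure D5:**
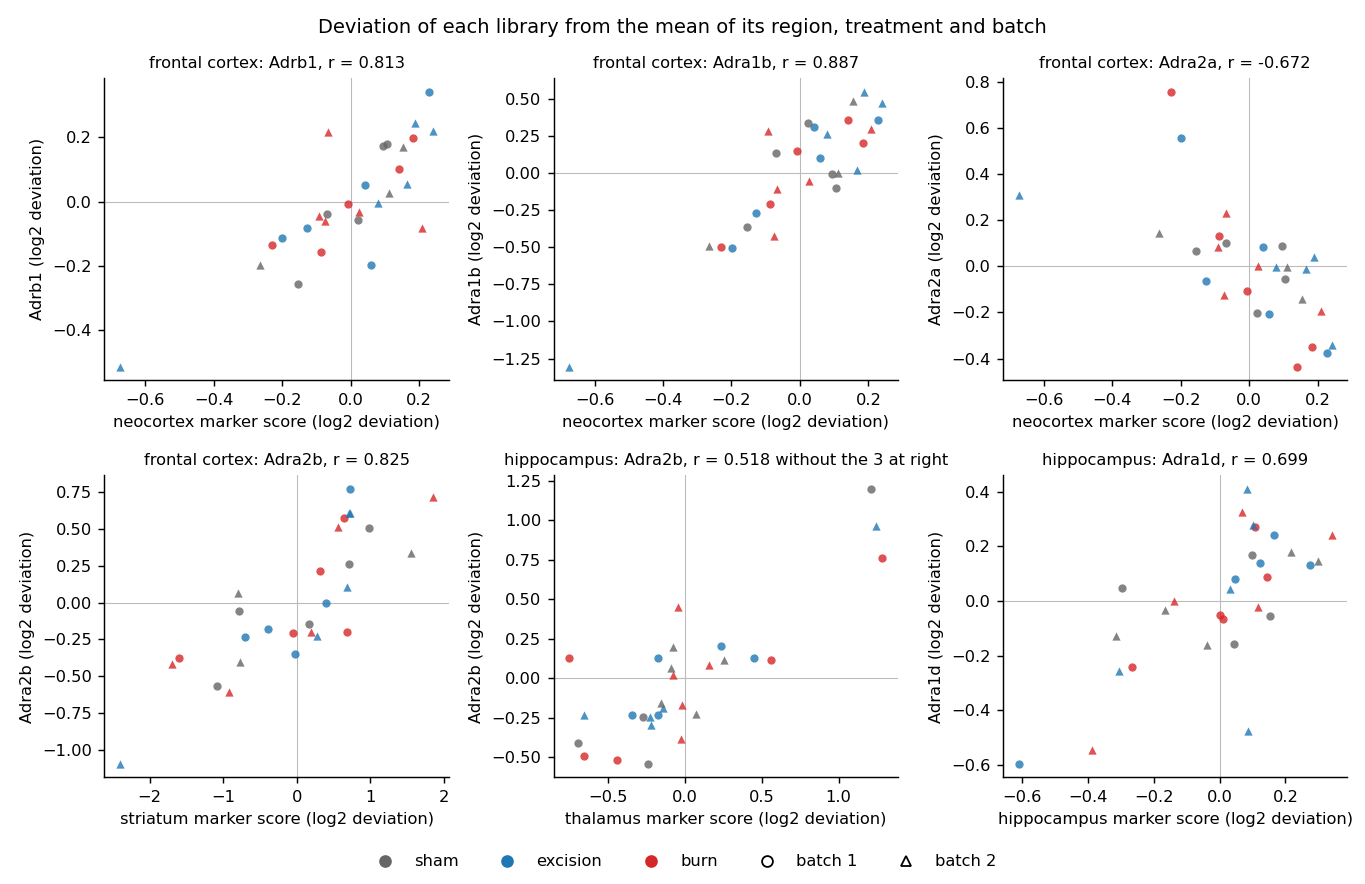
Deviation of a receptor gene (vertical, log2 CPM) and of a marker list (horizontal, mean log2 CPM) from the mean of the library's region, treatment and batch, 1 point per library, for 6 pairs. Adrb1 and Adra1b rise and Adra2a falls with the neocortical list in the frontal cortex (r = 0.813, 0.887 and -0.672), and 3 hippocampal libraries are high in both thalamic markers and Adra2b.

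The other genes of noradrenaline signalling were read from a fixed set of 50 in 5 lists. Only Maoa was called in any of the 9 treatment contrasts, for burn against sham in the hippocampus (1 of 48 tested, a share near the 1.03% of all tested genes called there). It encodes monoamine oxidase A, which breaks down noradrenaline and serotonin. Maoa measured 21.1, 24.8 and 26.5 CPM after burn and 18.7, 20.0 and 21.8 CPM in shams of the hippocampus. The groups overlapped slightly, and the log2 fold change was 0.25 (SE 0.0576, adjusted p = 0.0336). The signalling lists of the receptors had 0 called genes in that contrast, with medians of -0.00605 for the 9 Gq genes, 0.03 for the 10 Gi/o genes and 0.05 for the 12 Gs genes on the log2 scale, against 0.01 over all genes.

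Between sham hippocampus and sham frontal cortex, 24 of 48 tested pathway genes were called lower and 3 higher, where 20.1% and 20.8% of all tested genes were. The Gs list had 7 of 12 lower and 0 higher, the Gq list 5 of 9 lower and 1 higher, and the Gi/o list 3 of 10 lower and 0 higher. The list of receptor kinases, arrestins and RGS proteins had 5 of 9 lower and 2 higher, and that of noradrenaline synthesis, transport and breakdown 4 of 8 lower and 0 higher. Arrb1, a beta-arrestin that uncouples active receptors, was lower by -0.74 (SE 0.0646, adjusted p = 1.54e-08), and Grk5, a receptor kinase, by -1.06 (SE 0.0934, adjusted p = 1.57e-08). Plcb4, a phospholipase C of the Gq arm, was lower by -1.65 (SE 0.163, adjusted p = 8.69e-08) and Rgs4, which shortens Gq and Gi signals, by -1.22 (SE 0.131, adjusted p = 2.53e-07). Th, the first enzyme of catecholamine synthesis, had the widest difference, -5.47 (SE 0.465, adjusted p = 9.92e-09), with 0.519 to 3.04 CPM in the hippocampus and 8.36 to 90.2 CPM in the frontal cortex. Its level varied widely between frontal cortex libraries, from 1.73 to 138 CPM after burn and from 3.46 to 126 CPM after excision. Hippocampal excision libraries reached 21.6 CPM. What this spread came from was not tested. Sham piriform against frontal cortex had 3 pathway genes higher and 6 lower of 49, where 11% of all tested genes were called in either direction, with Th at -4.87 (SE 0.563, adjusted p = 8.32e-06), and sham hippocampus against piriform cortex 2 higher and 19 lower of 49, where 33.6% were.

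The genes most like each receptor were taken over the 15 means of region, treatment and batch, among 15904 genes with a mean of at least 1 CPM, as the highest Pearson r. These means share regions and libraries, so r is a description. For Adra1a they were Pde4d (r = 0.985), Deptor and Pcdh10 (both 0.979), and for Adra1b Gm15631 (0.991), Trbc2 (0.99) and Ppme1 (0.988). Adra1d was nearest to Pvt1 (0.959), Abracl (0.949) and Pou3f1 (0.947), and Adrb1 to Ttc7b (0.98), Map3k9 (0.976) and Ctnna2 (0.975). Adra2a had Rcan3 (0.923), Galnt10 (0.903) and Vac14 (0.895), and Adra2c had Pcsk1n (0.891), Mob2 (0.88) and Prdx6 (0.871). Among the receptors themselves, Adrb1 and Adra1b were the most alike (0.899), followed by Adra1a and Adra1b (0.896), while Adra1d ran against Adra1b (-0.775) and Adra2a (-0.773). Adra2b was left out here, since its mean is under 1 CPM.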

How the data were processed

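The authors deposited 1 table with raw, whole-number counts for each gene in 71 libraries. Reads were single-end of 100 bp per the labels' protocols. GRCm38, STAR, fastp, FastQC 0.11.3 and DESeq2 1.24.0 are listed in the submitters' processing notes. The sources used here name no counting program, annotation or strand setting. Symbols from GENCODE M21 matched 52135 identifiers, and the 3281 others held 0.809% of counts.

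Counts were tested in each region with edgeR 4.0.16 under R 4.3.3 (TMM, filterByExpr, quasi-likelihood F test, Benjamini-Hochberg over all tested genes, threshold 0.05). Batch was a term in the hippocampus and frontal cortex. Shams of different regions were tested likewise, with batch where only these 2 regions entered. CPM came from TMM over all 71 libraries, and marker scores are means of log2(CPM + 0.5). Of 270 pairs of libraries within groups, 0 were identical, and the lowest chi-square per degree of freedom was 4.36. Depth limits Adra2b most, and the limit for a count of 0 covers counting error only. The scripts were tested on simulated data.

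The 7 receptor genes were read whatever their value, and pathway genes were named only where called, at most 5 per comparison by smallest p. The receptor genes, pathway lists and marker lists were chosen with earlier results of these data known. Alternatives were DESeq2 1.42.0, its size factors, no count filter, no batch term, single batches, the replicate block, treatment from titles, libraries left out, other treatments for regions, and a marker covariate.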

Additional observations from a re-analysis of the deposited data

Results flagged for a closer look

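A library was listed where its gap to the nearest of its group exceeded Dixon's critical value at 95% over the group's range. Of 63 gene and group combinations 11 met this. Chance flags about 1 in 20 where values are normally distributed in 1 population. That rate need not hold here, since hippocampal and frontal cortex groups pool batches and Adra2b counts are low.

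Adra2b gave 5 of the 11, each a single high library: hippocampus burn replicate 4 at 0.895 CPM (next 0.431), hippocampus excision replicate 10 at 0.821 CPM (next 0.174), hippocampus sham replicate 1 at 1.17 CPM (next 0.212), piriform burn replicate 1 at 0.929 CPM (next 0.231) and piriform sham replicate 3 at 0.997 CPM (next 0.204). Their raw counts were 28, 33, 9, 56 and 54. The 3 hippocampal libraries had thalamic marker sums of 250, 243 and 204 CPM, and the 2 piriform libraries striatal marker sums of 1456 and 1725 CPM, the highest of their groups.

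Adra1b was high in hippocampus sham replicate 7 at 16.0 CPM (next 8.69), a library with a neocortical marker sum of 417 CPM, the highest among the hippocampal shams. It was low in piriform excision replicate 4 at 15.2 CPM (next 21.6). Adra1a was high in hippocampus excision replicate 6 at 5.97 CPM (next 3.71). Adrb1 was high in hippocampus excision replicate 3 at 23.6 CPM (next 20.3), which rests on 166 counts, and in hippocampus sham replicate 9 at 21.6 CPM (next 18.0). It was low in piriform burn replicate 5 at 31.2 CPM (next 34.9).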

How the results depend on the processing

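The counts of called receptor genes moved in few settings. Hippocampus burn against sham went from 0 to 1 (Adrb1) with the DESeq2 Wald test and in batch 1 alone, and frontal cortex burn against sham from 0 to 1 (Adrb1) in batch 1 alone. Sham piriform against frontal cortex went from 1 to 2 when burn libraries were used, 0 with excision libraries and 3 with all treatments. Sham hippocampus against piriform cortex went from 4 to 2 without the libraries whose title names another treatment. Leaving out 1 library at a time gave 0 to 1 for hippocampus burn against sham, 5 to 6 for hippocampus against frontal cortex, 1 to 2 for piriform against frontal cortex (2 without piriform sham replicate 3, which adds Adra2b) and 2 to 4 for hippocampus against piriform cortex. The other 8 treatment contrasts stayed at 0.

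Of 2510 recomputed gene values, 2483 kept their side of the threshold and, where called, their direction, 12 gained a call and 15 lost one. The 2483 include 104 values, uncalled in both fits, that changed sign. Title numbers were compared between treatments within a region, which cannot show whether regions share a mouse. Of the same-numbered pairs, 13 of 28 hippocampal, 10 of 24 frontal and 4 of 11 piriform pairs had correlated deviations over 0.1. Other pairs were not counted in this way, so these counts alone do not show pairing. The medians of the same-numbered pairs were 0.0765, 0.00159 and -0.0637, against -0.0309, 0.0383 and -0.041 for other pairs. By library number, 7 pairs of sham hippocampus and sham frontal cortex had a median of 0.0993, against -0.108 for other pairs. Whether these share mice cannot be told, and the main region test did not pair them. With the replicate block, Adrb1 for burn against sham was 0.27 in the hippocampus (adjusted p = 0.09) and 0.39 in the frontal cortex (adjusted p = 0.293), and no treatment contrast had a call. Low counts limit Adra2b in all regions, and the 4 shallow libraries limit hippocampus batch 1.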
